A study of Homo sapiens with 13 samples.

Results

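Sterol and fatty acid synthesis were followed as 36 genes, 25 in a sterol arm and 11 in a fatty acid arm, out of the 56831 genes listed in each deposited table. The members were chosen by symbol and by their role in the route. RNA was sequenced from H82 and H146, which are established human small cell lung cancer (SCLC) lines labelled as genetically unmodified. Untreated H82 (n = 3) was compared with H82 kept for 14 days in 100 nM FHD-286 (n = 3), and untreated H146 (n = 3) with H146 under the same dose and time (n = 4). FHD-286 blocks the ATPases SMARCA4 and SMARCA2 of the BAF chromatin remodelling complex. Each line is a single established culture, and the labels do not say whether the replicates of a group were grown separately, so the p-values measure the spread between these samples, which may be technical.

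Cells make cholesterol from acetyl-CoA through mevalonate and squalene, and the transcription factor SREBP-2, encoded by SREBF2, is known to drive most genes of that route. SREBP-1, from SREBF1, acts mainly on the fatty acid genes. Both factors are held in the endoplasmic reticulum by SCAP and the INSIG proteins while sterols are plentiful, and move to the Golgi to be cut and released when sterols fall. Dividing tumor cells use this program for membrane lipids, and INSIG1 is among its most responsive targets.

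Sterol regulatory elements, E-boxes and CCAAT boxes are short DNA motifs known from promoters of this program, and some members held them. The windows below were taken from RefSeq (GRCh38.p14), as 30 bases of the strand of the gene, with the motif in capitals. They were chosen after the sequences had been seen, to show the motif types in members whose RNA fell in H82 (SREBF2, INSIG1, MSMO1, HMGCS1) and in one that passed the test in neither line (FDPS).
SREBF2, chr22:41832961-41832990, plus strand: atgacgcgccATCACCCCACgcaccgcttc
FDPS, chr1:155308721-155308750, plus strand: catgcTCACACGACggccagcagCCAATca
INSIG1, chr7:155297811-155297840, plus strand: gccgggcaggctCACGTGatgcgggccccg
MSMO1, chr4:165327472-165327501, plus strand: gcggtgccgaccATTGGctggctctgcagg
HMGCS1, chr5:43313550-43313579, minus strand: agtttccttttgATTGGtagaagccggact

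ATTGG is the reverse complement of CCAAT, the box bound by NF-Y. The sterol regulatory element, the 10 capital letters of the SREBF2 window, stood in the promoter of SREBF2 and in no other of the 32 members with a RefSeq promoter, and in 0.0456% of all 35116 promoters of the same 300 bases (250 before and 50 after the start). A looser form of it, TCACNCNAC, which overlaps it in SREBF2, stood in the promoters of SREBF2, FDPS, HSD17B7, ACSS2 and FADS2, or 11.6% of the 43 member promoters against 2.55% of all. CACGTG, the E-box, was found in SCAP, INSIG1, LSS, SC5D and ELOVL5, in 14% of the member promoters against 7.26%. CCAAT was the most frequent of the motifs searched, with a match on either strand in 62.8% of the member promoters against 34.6% of all. All searches covered both strands, and a match describes these letters only. FASN, FDFT1, ACAT2 and SQLE were not searched.

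Values are TPM, the reads of a gene divided by its length and scaled to the same sum in every library. A change is the difference in mean log2(TPM + 1), treated minus untreated, with its standard error, and was called where the adjusted p of limma was under 0.05. Every member passed the filter of 1 TPM in 3 libraries in both lines. The median of all tested genes moved by -0.56 in H82 and by 0.25 in H146, and scaling the libraries by the median of ratios took these to -0.14 and -0.02. Calls of single members that changed under a scaling are therefore named. RNA levels here are sums over all cells of a sample, in which fewer cells of a type and less RNA per cell cannot be told apart.

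The sterol arm includes the regulators SREBF2, SREBF1, SCAP, INSIG1 and INSIG2 and the carrier STARD4. Its counts and medians are therefore not those of enzymes alone. In H82, 11 of the 25 sterol genes fell and 1 rose, and 5 of the 11 fatty acid genes fell and 1 rose. Of all 19770 genes tested in this line 45.5% fell and 13.1% rose, so the number of falls was near the background in both arms. The median change was -0.35 in the sterol arm and -1.07 in the fatty acid arm. In H146, 6 sterol genes fell and 5 rose, and 4 fatty acid genes fell and 4 rose, where 15.5% of 19585 tested genes fell and 32.5% rose. The medians there were -0.16 in the sterol arm and -0.26 in the fatty acid arm, both below the 0.25 of all genes. The treated libraries lay wholly below the untreated ones for 12 sterol and 8 fatty acid genes in H82 (51.4% of all tested genes) and wholly above for 2 and 1 (16.4%). In H146 these numbers were 5 and 4 below (17.3%), and 6 and 5 above (35.7%).

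The split of rises and falls moved with the scaling. Under the median of ratios 9 sterol genes fell and 6 rose in H82 and the arm's median turned to 0.13, while 2 fatty acid genes fell and 2 rose (32.9% of all genes fell and 24.2% rose). In H146 12 sterol genes then fell and 3 rose, and 5 fatty acid genes fell and 3 rose (25.1% and 21.3% of all genes). With quantile normalization 10 sterol genes fell and 4 rose in H82, and 7 fatty acid genes fell and 1 rose (28.1% and 25.6%). The same scaling gave 9 sterol falls and 4 rises in H146, and 5 fatty acid falls and 4 rises (21% and 23.7%). Calls of 11 of the 16 falls in H82 and of all 10 falls in H146 held under both scalings, as did both rises in H82 and 6 of the 9 in H146. The share of all called genes that held under both was not counted, so these numbers have no background beside them.

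**Figure D1:**
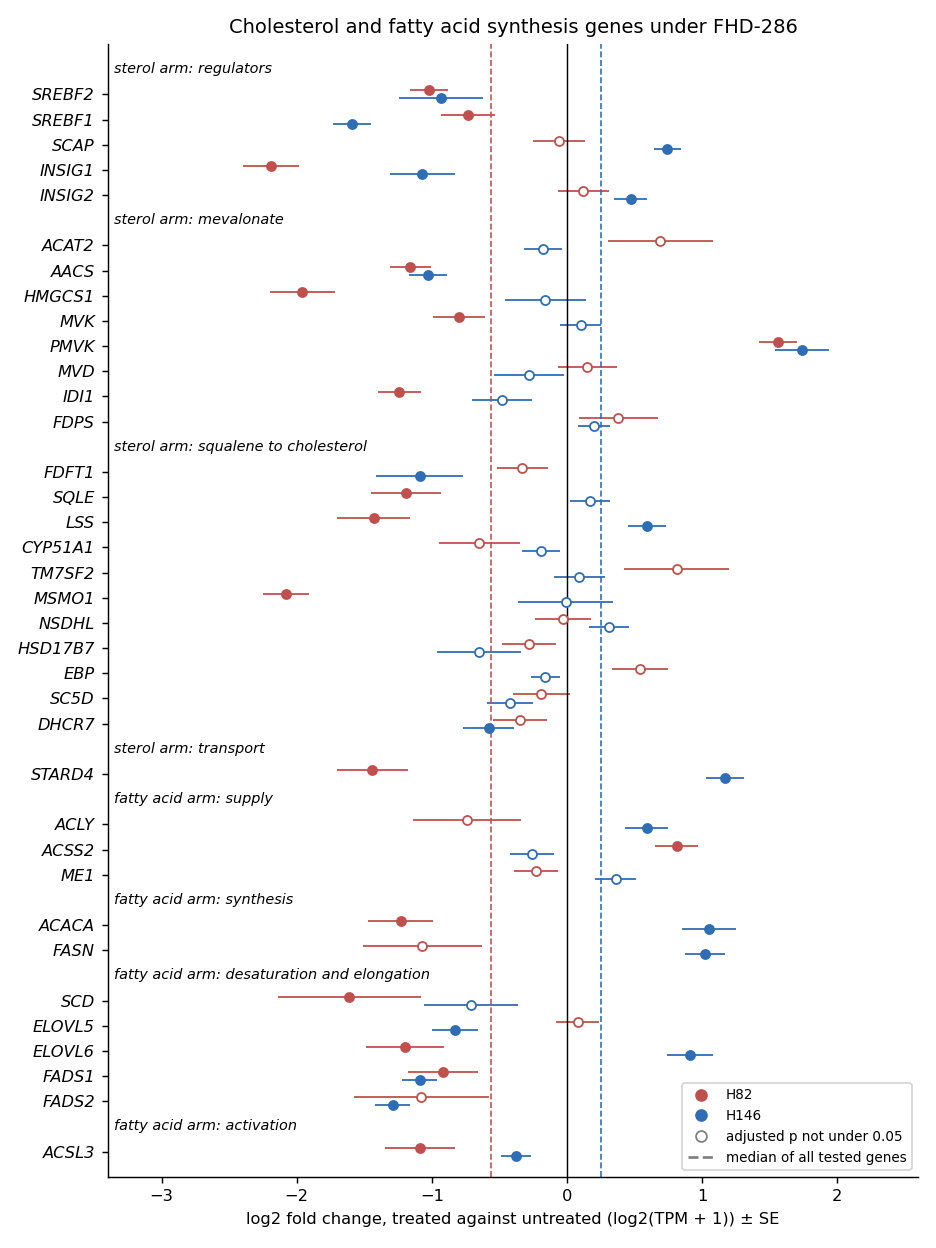
Log2 fold change of each member, treated against untreated, with its SE, in H82 (red) and H146 (blue), ordered by role. Filled points have an adjusted p under 0.05, dashed lines are the median of all tested genes (-0.56 in H82, 0.25 in H146), and PMVK lies above 1.5 in both lines.

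The transcription factors of the pathway fell in both lines, although the fall of SREBF1 in H82 was not past the threshold under either scaling. SREBF2 stood at 183, 163 and 182 TPM in the untreated H82 libraries and at 75.4, 88.8 and 95.3 TPM in the treated ones, a change of -1.02 ± 0.14 (SE) with adjusted p = 0.00117. In H146 it went from 134, 138 and 116 TPM to 83.5, 114, 47.6 and 44.1 TPM, a change of -0.93 ± 0.31 with adjusted p = 0.037. The groups did not overlap in either line, but treated replicate 2 of H146 lay just under the untreated range. The call in H146 was lost without any 1 of the untreated libraries or treated replicates 3 and 4, where the change ran from -1.01 to -0.74 (adjusted p up to 0.101). The size of the SREBF2 change did not differ detectably between the lines (H146 minus H82 0.09 ± 0.39 with adjusted p = 0.86).

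SREBF1 was at 41.8, 33.9 and 43.2 TPM in H82 without and at 26.3, 18.0 and 26.6 TPM with the drug, a change of -0.73 ± 0.20 with adjusted p = 0.0159. This fall in H82 lay 0.18 below the median of all genes, and was -0.69 and -0.67 (adjusted p = 0.0734 and 0.0768) without untreated replicate 1 or 3. In H146 the 3 untreated libraries had 49.1, 60.0 and 52.1 TPM and the 4 treated ones 15.2, 19.9, 18.2 and 15.4 TPM, well apart, for a change of -1.59 ± 0.14 with adjusted p = 9.33e-05. The fall was larger in H146 than in H82 by 0.86 ± 0.24 (adjusted p = 0.00806), and this difference held under every alternative.

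INSIG1, which retains SCAP in the endoplasmic reticulum and is itself a target of SREBP, fell furthest of all members in H82. Its untreated libraries had 166, 174 and 169.5 TPM and its treated ones 26.3, 45.1 and 41.1 TPM, a change of -2.19 ± 0.21 with adjusted p = 0.000313. In H146 it went from 81.8, 102 and 64.2 TPM to 33.8, 58.1, 32.1 and 33.6 TPM (-1.07 ± 0.24 with adjusted p = 0.00693), and treated replicate 2 was again the highest of the treated group. The fall was smaller in H146 by 1.12 ± 0.34 (adjusted p = 0.0142), a difference not past the threshold under the median of ratios. Both falls held under all 16 alternatives.

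SCAP, the sterol sensor that escorts the SREBPs, behaved differently. H82 had 88.3, 76.3 and 85.5 TPM untreated and 62.5, 79.5 and 101 TPM treated, overlapping groups with a change of -0.06 ± 0.19 with adjusted p = 0.793. H146 went from 41.9, 39.7 and 40.6 TPM to 69.9, 70.8, 69.0 and 66.0 TPM, a rise of 0.74 ± 0.10 with adjusted p = 0.000615 with no overlap. The difference between the lines was 0.81 ± 0.20 with adjusted p = 0.00474, and it was near 0 under the median of ratios. INSIG2, which also retains SCAP, was at 14.6, 17.7 and 14.9 TPM and 15.1, 21.8 and 15.4 TPM in H82 (0.12 ± 0.19 with adjusted p = 0.602). H146 had 13.7, 13.8 and 12.7 TPM untreated and 19.2, 18.8, 17.8 and 20.3 TPM treated, a rise of 0.47 ± 0.12 with adjusted p = 0.0119 that was not past the threshold under either scaling. In H82 INSIG2 was called higher under both scalings (0.59 and 0.60, adjusted p = 0.0287 and 0.0205).

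**Figure D2:**
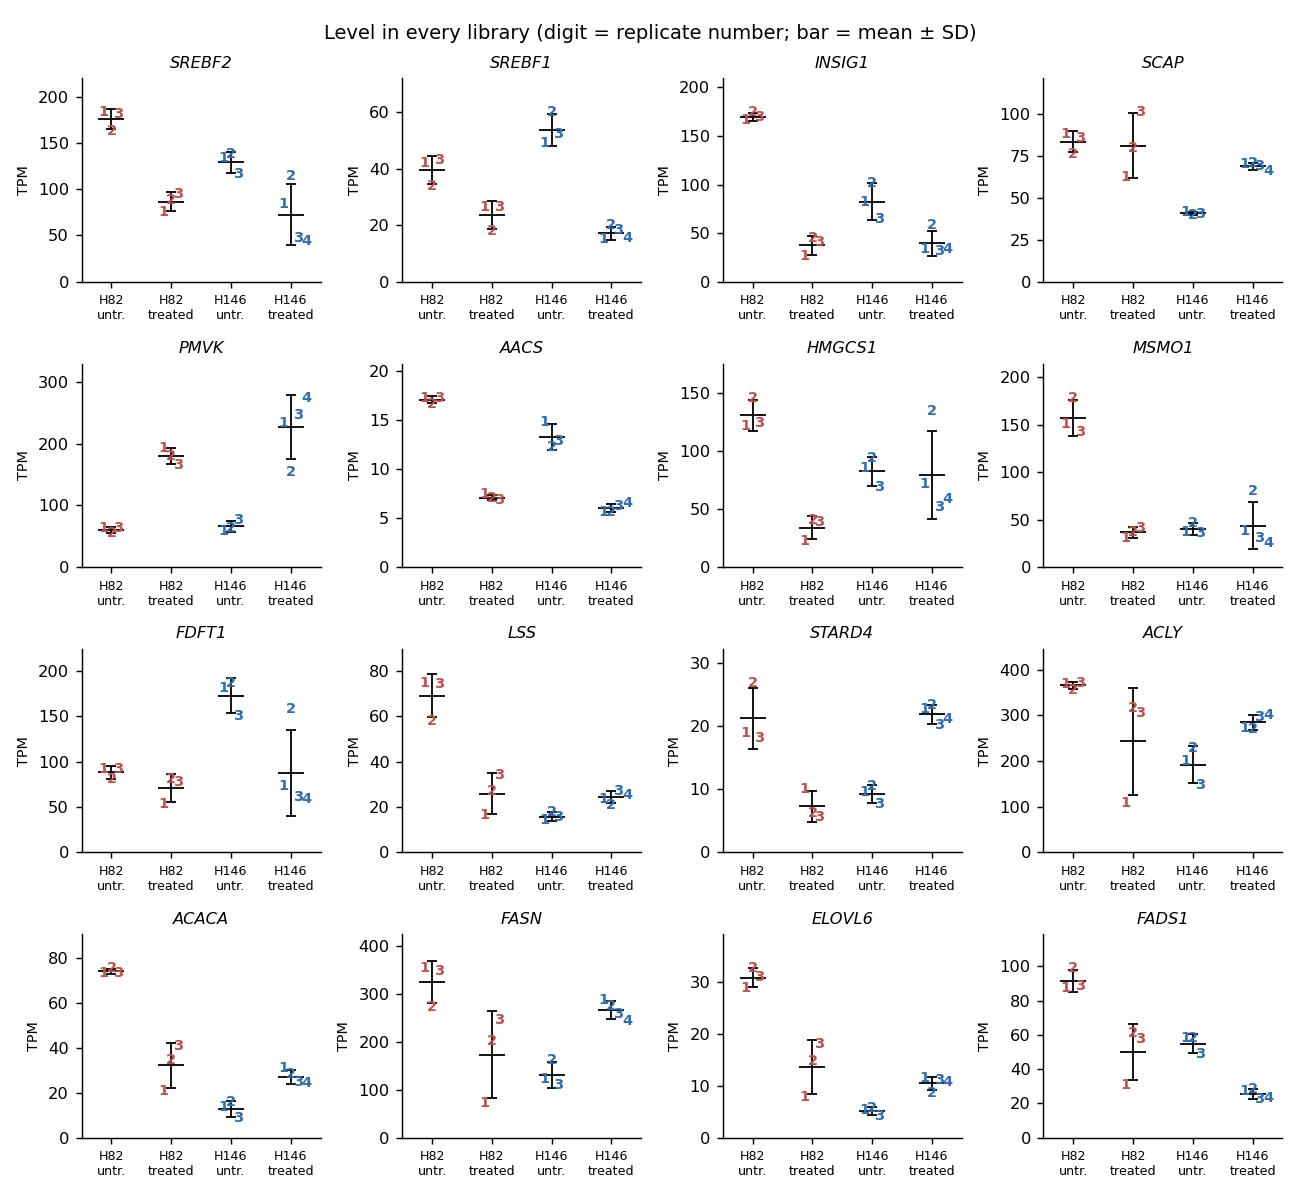
TPM of 16 members in every library, with the replicate number as the symbol and the mean ± SD of each group as a bar, axes from 0. INSIG1 and AACS fell and PMVK rose in both lines, STARD4, LSS, ACACA and ELOVL6 moved in opposite directions, and treated replicate 2 of H146 is the highest treated library for SREBF2, HMGCS1, MSMO1 and FDFT1.

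Among the enzymes that build mevalonate and its isoprenoid products, PMVK was the only one called higher, in both lines. PMVK phosphorylates phosphomevalonate. It went from 63.2, 54.5 and 63.8 TPM to 193, 180.4 and 166 TPM in H82, a rise of 1.56 ± 0.14 with adjusted p = 0.00024, and from 58.5, 63.9 and 76.5 TPM to 234, 155, 246 and 275 TPM in H146, a rise of 1.74 ± 0.20 with adjusted p = 0.000321. It was the largest rise of any member in each line, and it held under all alternatives. Replicate 2 was again the odd treated H146 library, here the lowest.

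AACS, which activates acetoacetate in the cytosol for lipid synthesis, fell in both lines. Its levels were 17.3, 16.7 and 17.3 TPM and 7.43, 7.01 and 6.89 TPM in untreated and treated H82 (-1.16 ± 0.15 with adjusted p = 0.000746). In H146 they were 14.8, 12.3 and 12.9 TPM and 5.64, 5.68, 6.26 and 6.55 TPM (-1.03 ± 0.14 with adjusted p = 0.000742). The treated values lay within a narrow band in both lines, and the difference between the changes was 0.13 ± 0.17 with adjusted p = 0.529. AACS was called lower under all alternatives in both lines. Under both scalings the lines did differ for it (-0.60 and -0.71, adjusted p = 0.00901 and 0.00409).

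HMGCS1, which makes HMG-CoA and is a classical SREBP-2 target, fell strongly in H82. The untreated libraries held 122, 145.7 and 124 TPM and the treated ones 22.2, 40.6 and 38.8 TPM, a change of -1.96 ± 0.24 with adjusted p = 0.00072. In H146 the levels were 84.9, 93.6 and 68.9 TPM untreated and 71.2, 134, 51.5 and 58.5 TPM treated, so that treated replicate 2 was above every untreated library and the change was -0.16 ± 0.30 with adjusted p = 0.692. Without that library the change was -0.44 (adjusted p = 0.0414). The lines differed by 1.80 ± 0.43 with adjusted p = 0.00342, not past the threshold under the median of ratios.

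IDI1, the isomerase that gives dimethylallyl diphosphate, was at 52.6, 71.0 and 55.8 TPM in H82 without and at 23.6, 24.7 and 25.3 TPM with the drug (-1.24 ± 0.16 with adjusted p = 0.000734). H146 had 38.4, 36.2 and 32.0 TPM and 19.8, 38.9, 23.0 and 22.2 TPM (-0.48 ± 0.22 with adjusted p = 0.102), with 3 treated libraries below the untreated range and replicate 2 above it, and without replicate 2 the change was -0.69 (adjusted p = 0.00193). Under the median of ratios IDI1 was called lower in H146 (-0.79, adjusted p = 0.0237). MVK, the mevalonate kinase, was at 12.02, 8.60 and 10.8 TPM and 6.34, 5.14 and 5.28 TPM in H82, without overlap (-0.80 ± 0.19 with adjusted p = 0.0107). In H146 its levels of 7.11, 6.66 and 6.90 TPM and 7.22, 6.21, 8.44 and 8.002 TPM overlapped (0.10 ± 0.15 with adjusted p = 0.627). The fall of MVK in H82 was lost under both scalings, where it was -0.36 and -0.03, and without untreated replicate 1 (-0.70, adjusted p = 0.0566). The differences between the lines were 0.76 ± 0.29 with adjusted p = 0.0396 for IDI1 and 0.89 ± 0.22 with adjusted p = 0.00441 for MVK, and neither held under either scaling.

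ACAT2, MVD and FDPS passed the test in neither line on TPM as deposited. ACAT2 joins acetyl-CoA units, and its mean in H82 went from 34.2 ± 0.561 TPM to 62.1 ± 30.9 TPM (0.69 ± 0.39 with adjusted p = 0.169). Only treated replicate 1 of H82 was below the untreated range for ACAT2, and without it the change was 1.18 (adjusted p = 0.000348). FDPS, which makes farnesyl diphosphate, showed the same pattern of libraries, with a change of 0.38 ± 0.29 with adjusted p = 0.292 in all and of 0.70 (adjusted p = 0.00354) without that library. Under the scalings ACAT2 passed in both lines, higher in H82 (1.17 with adjusted p = 0.0315 and 0.87 with adjusted p = 0.0355) and lower in H146 (-0.49 with adjusted p = 0.00781 and -0.36 with adjusted p = 0.0285), and the lines then differed for it by -1.67 and -1.23 (adjusted p = 0.0032 and 0.00508). FDPS was called higher in H82 under the median of ratios (0.86, adjusted p = 0.0283). MVD, the decarboxylase before IDI1, changed by 0.15 ± 0.22 with adjusted p = 0.571 in H82 and -0.28 ± 0.26 with adjusted p = 0.396 in H146. The H146 changes of ACAT2 and FDPS were -0.18 ± 0.14 with adjusted p = 0.293 and 0.20 ± 0.12 with adjusted p = 0.215.

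The enzymes from squalene to cholesterol included the steepest fall after INSIG1. MSMO1, an oxidase that takes part in the removal of methyl groups from the sterol ring, went from 150.5, 178 and 143 TPM to 30.6, 37.2 and 41.4 TPM in H82, a change of -2.08 ± 0.17 with adjusted p = 0.000184. H146 had 37.3, 46.7 and 35.6 TPM untreated and 37.5, 80.0, 30.6 and 25.5 TPM treated, a change of -0.01 ± 0.35 with adjusted p = 0.976 whose sign turned with the library left out. Treated replicate 2 was far above the other treated libraries. H146 minus H82 was 2.07 ± 0.44 with adjusted p = 0.00154 and held under both scalings.

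LSS, which closes squalene epoxide into lanosterol, moved in opposite directions. In H82 it fell from 74.6, 58.0 and 74.1 TPM to 16.3, 26.8 and 34.2 TPM (-1.43 ± 0.27 with adjusted p = 0.00374). In H146 it rose from 14.1, 17.7 and 15.6 TPM to 23.6, 20.8, 26.9 and 25.5 TPM (0.59 ± 0.14 with adjusted p = 0.00956), although under the median of ratios the rise was 0.28 (adjusted p = 0.0956, with adjusted p between 0.00322 and 0.0956 over the alternatives). Without untreated replicate 1 of H146 it was 0.51 (adjusted p = 0.0504). No treated library overlapped the untreated ones in either line. The difference, 2.02 ± 0.30 with adjusted p = 0.000142, held under all 23 alternatives.

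SQLE, the squalene epoxidase and a rate-limiting step of the route, was at 195, 214 and 191 TPM in H82 without and at 57.0, 100.1 and 115 TPM with the drug, a fall of -1.19 ± 0.26 with adjusted p = 0.00707. H146 showed overlapping levels of 67.5, 76.0 and 55.7 TPM and 73.9, 90.5, 66.5 and 68.6 TPM (0.17 ± 0.15 with adjusted p = 0.383). FDFT1, which condenses farnesyl diphosphate to squalene, showed the reverse order of lines. Its H82 levels were 91.5, 80.3 and 92.1 TPM and 53.0, 80.8 and 78.0 TPM (-0.33 ± 0.19 with adjusted p = 0.173). Its H146 levels were 181, 186 and 151 TPM untreated and 73.2, 157, 61.1 and 58.4 TPM treated (-1.09 ± 0.32 with adjusted p = 0.0217). Treated replicate 2 lay within the untreated range of FDFT1 and the other 3 far below it, and without that library the change was -1.41 (adjusted p = 8.66e-05). The FDFT1 call was lost without any 1 of the untreated libraries or treated replicates 1 and 3, with changes from -1.19 to -0.96 and adjusted p from 0.0505 to 0.0693. The lines differed for SQLE (1.36 ± 0.31 with adjusted p = 0.0024, not under the median of ratios), and not detectably for FDFT1 (-0.76 ± 0.42 with adjusted p = 0.14). Under the median of ratios the FDFT1 difference was -1.56 and passed (adjusted p = 0.00992). With quantile normalization FDFT1 was called lower in H82 (-0.36, adjusted p = 0.0342).

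EBP, the sterol isomerase, was at 164, 160.1 and 173 TPM and 176, 282 and 279.5 TPM in H82, where the treated libraries were all above the untreated ones, the change being 0.54 ± 0.21 with adjusted p = 0.0623. H146 had 122, 120.3 and 128 TPM and 99.6, 119, 109 and 117 TPM (-0.16 ± 0.11 with adjusted p = 0.256), with every treated library below the untreated range. Neither change passed alone on TPM as deposited, but the difference between the lines did (-0.69 ± 0.23 with adjusted p = 0.0189) and held under all alternatives. Under the median of ratios both EBP changes passed, 1.03 in H82 (adjusted p = 0.00337) and -0.47 in H146 (adjusted p = 0.0113). DHCR7, one of the last reductases of the route, fell in H146 (-0.58 ± 0.19 with adjusted p = 0.0354) and changed by -0.35 ± 0.20 with adjusted p = 0.175 in H82. Of the 7 fits with a library of H146 left out, only the one without treated replicate 2 kept the DHCR7 call, and the other changes ran from -0.65 to -0.50 (adjusted p up to 0.119).

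CYP51A1, TM7SF2, NSDHL, HSD17B7 and SC5D, which remove methyl groups or reduce and desaturate the ring, passed the test in neither line on TPM as deposited. Their changes ran from -0.65 (CYP51A1) to 0.81 (TM7SF2) in H82 and from -0.65 (HSD17B7) to 0.31 (NSDHL) in H146. TM7SF2 had treated H82 libraries at 26.1, 21.3 and 8.64 TPM against 11.1, 7.30 and 9.67 TPM untreated, so that replicate 3 stayed in the untreated range. TM7SF2 was called higher in H82 under the median of ratios and quantile normalization (1.27 and 1.46, adjusted p = 0.0361 and 0.0193), and in H146 CYP51A1 (-0.48 and -0.45, adjusted p = 0.0265 and 0.0333) and SC5D (-0.73 and -0.57, adjusted p = 0.0134 and 0.0406) were called lower. The lines then differed for TM7SF2 (-1.49 and -1.60) and SC5D (-1.02 and -0.74), with adjusted p = 0.0156 and 0.0109, and 0.00927 and 0.0425. HSD17B7 was lower in H146 under the median of ratios (-0.95, adjusted p = 0.0423).

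STARD4, a carrier of cholesterol between membranes and an SREBP-2 target, showed the largest difference between the lines. In H82 it fell from 18.9, 26.9 and 18.1 TPM to 10.1, 6.32 and 5.54 TPM (-1.44 ± 0.26 with adjusted p = 0.00308). In H146 it rose from 9.54, 10.5 and 7.71 TPM to 22.8, 23.4, 20.2 and 21.2 TPM (1.17 ± 0.14 with adjusted p = 0.000424). The groups were apart in both lines, and H146 minus H82 was 2.61 ± 0.29 with adjusted p = 1.57e-05, held under all 23 alternatives.

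In the fatty acid arm, ACACA and FASN together make palmitate. ACACA, the carboxylase that gives malonyl-CoA, went from 73.6, 75.5 and 73.3 TPM to 21.0, 34.5 and 41.0 TPM in H82 (-1.23 ± 0.24 with adjusted p = 0.00438). In H146 it went from 13.5, 16.1 and 9.01 TPM to 30.9, 28.6, 24.9 and 24.5 TPM (1.05 ± 0.20 with adjusted p = 0.00317). Both calls held under both scalings, and the difference was 2.28 ± 0.32 with adjusted p = 9.02e-05. FASN, the fatty acid synthase, was at 354, 274 and 347 TPM in H82 without and at 71.8, 202 and 246 TPM with the drug. The treated libraries were all lower, but the fall of -1.07 ± 0.44 with adjusted p = 0.0731 did not pass, and 1 of them, replicate 1, was far below the other two. Without replicate 1 the change was -0.53 (adjusted p = 0.0174). With all libraries and quantile normalization it was -1.37 and passed (adjusted p = 0.01). In H146 FASN went from 122, 163 and 111 TPM to 287, 274, 258 and 244 TPM, a rise of 1.02 ± 0.15 with adjusted p = 0.000916 under all alternatives, and the lines differed by 2.09 ± 0.48 with adjusted p = 0.00245.

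The enzymes that supply acetyl-CoA and NADPH did not move together. ACLY, which splits citrate, had 369.7, 356 and 371 TPM in H82 without and 109, 315 and 306 TPM with the drug (-0.74 ± 0.40 with adjusted p = 0.154), with replicate 1 again apart, and without it the change was -0.24 and passed (adjusted p = 0.0158). In H146 it rose from 200.1, 228 and 147 TPM to 271, 269.9, 296 and 301 TPM (0.59 ± 0.16 with adjusted p = 0.0145), a rise not past the threshold under the median of ratios. With quantile normalization the ACLY fall in H82 passed (-1.08, adjusted p = 0.0162). ACSS2, which makes acetyl-CoA from acetate, rose in H82 from 16.6, 15.99 and 14.5 TPM to 24.0, 29.8 and 31.4 TPM (0.81 ± 0.16 with adjusted p = 0.0043). H146 had 10.7, 10.4 and 8.43 TPM before and 8.63, 9.47, 7.35 and 6.88 TPM under the drug (-0.26 ± 0.16 with adjusted p = 0.22), and the lines differed by -1.07 ± 0.22 with adjusted p = 0.00113. Under the median of ratios and quantile normalization ACSS2 was called lower in H146 (-0.55 and -0.52, adjusted p = 0.0258 and 0.0263). ME1, the malic enzyme, was at 22.6, 27.9 and 20.6 TPM and 19.6, 18.8 and 21.2 TPM in H82 (-0.23 ± 0.16 with adjusted p = 0.248) and at 52.9, 50.8 and 47.5 TPM and 53.6, 58.1, 72.4 and 78.1 TPM in H146 (0.36 ± 0.15 with adjusted p = 0.0815). The difference between the lines was 0.59 ± 0.22 with adjusted p = 0.0326 for ME1, lost under both scalings. It was 1.32 ± 0.44 with adjusted p = 0.0209 for ACLY, lost under the median of ratios and without untreated replicate 3 of H146 (1.15, adjusted p = 0.0582).

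The desaturases and elongases split as well. ELOVL6, which lengthens palmitate, fell in H82 from 29.0, 32.7 and 30.9 TPM to 7.84, 14.9 and 18.0 TPM (-1.20 ± 0.29 with adjusted p = 0.00987). It rose in H146 from 5.42, 5.69 and 4.22 TPM to 11.5, 8.57, 11.2 and 10.7 TPM (0.91 ± 0.17 with adjusted p = 0.00289), and the difference was 2.11 ± 0.33 with adjusted p = 0.000181 with the same call under all alternatives. ELOVL5, which lengthens polyunsaturated fatty acids, had overlapping H82 levels of 83.1, 97.5 and 88.5 TPM and 78.9, 108 and 101 TPM (0.08 ± 0.16 with adjusted p = 0.676). Under the median of ratios ELOVL5 was called higher in H82 (0.57, adjusted p = 0.0109). In H146 it fell from 185, 175 and 152 TPM to 105, 120.2, 83.7 and 78.7 TPM (-0.83 ± 0.17 with adjusted p = 0.00448), and the lines differed by -0.91 ± 0.24 with adjusted p = 0.00591.

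SCD, which makes oleate, had the highest level of any member in untreated H82, 514, 566 and 507 TPM, against 67.1, 281 and 273 TPM treated (-1.61 ± 0.53 with adjusted p = 0.0346). In H146 the groups of 160.2, 183 and 124 TPM and 128, 158, 64.6 and 58.8 TPM overlapped (-0.71 ± 0.35 with adjusted p = 0.125). The SCD call in H82 was lost without any 1 of the untreated libraries (adjusted p from 0.0805 to 0.108) and under the median of ratios (-1.12, adjusted p = 0.0988), and without treated replicate 1 the change was -0.93 (adjusted p = 0.000251). FADS1 and FADS2, the desaturases of polyunsaturated fatty acids, are neighbours on chromosome 11 (hg38 61799627 to 61829318 and 61792980 to 61867354), and their annotated spans overlap on opposite strands.

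FADS1 fell in H82 from 87.3, 98.9 and 88.6 TPM to 31.0, 61.3 and 57.7 TPM (-0.92 ± 0.26 with adjusted p = 0.0204) and in H146 from 58.1, 57.9 and 48.6 TPM to 27.6, 28.2, 22.6 and 23.1 TPM (-1.09 ± 0.13 with adjusted p = 0.000458). FADS2 in H82 had 43.0, 33.9 and 38.4 TPM untreated and 6.78, 29.7 and 25.7 TPM treated (-1.08 ± 0.50 with adjusted p = 0.101). It fell in H146 from 50.5, 52.6 and 52.1 TPM to 24.1, 21.9, 19.5 and 17.4 TPM (-1.29 ± 0.13 with adjusted p = 0.000206). Without treated replicate 1 of H82 the FADS2 change there was -0.46 and passed (adjusted p = 0.0193). The H146 calls of both held under all alternatives, and the H82 call of FADS1 was lost without any 1 of the untreated libraries (-0.95 to -0.86, adjusted p from 0.0608 to 0.0824) and under the median of ratios (-0.43, adjusted p = 0.157). ACSL3, which activates fatty acids with CoA, fell in H82 from 36.9, 46.7 and 39.7 TPM to 12.2, 23.4 and 22.8 TPM (-1.09 ± 0.26 with adjusted p = 0.0103) and in H146 from 50.6, 48.2 and 48.0 TPM to 38.0, 41.1, 34.6 and 35.8 TPM (-0.38 ± 0.11 with adjusted p = 0.0202). The ACSL3 call was lost in H82 under the median of ratios (-0.61, adjusted p = 0.0627) and without untreated replicate 2 (-0.99, adjusted p = 0.0517), and in H146 without untreated replicate 1 or 2 or treated replicate 3 (-0.39 to -0.35, adjusted p from 0.0607 to 0.0866). Whether the counting of reads used strand is not given in the sources used here. It is therefore unknown whether reads of FADS1 and FADS2 in the shared stretch were kept apart.

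The lines were then compared gene by gene. A total of 6 members fell in both lines (SREBF2, SREBF1, INSIG1, AACS, FADS1 and ACSL3), which is 37.5% of the 16 falls of H82 and 60% of the 10 falls of H146, and PMVK rose in both. Another 4 fell in H82 and rose in H146 (LSS, STARD4, ACACA and ELOVL6). When scaled by the median of ratios, 4 members fell in both lines (SREBF2, INSIG1, AACS and IDI1), 3 fell in H82 and rose in H146 (STARD4, ACACA and ELOVL6), and 4 rose in H82 and fell in H146 (ACAT2, EBP, ACSS2 and ELOVL5). Quantile normalization gave 6 that fell in both, 6 that fell in H82 and rose in H146, and 2 in the reverse directions (ACAT2 and ACSS2). The share of all tested genes with each of these pairs of calls was not counted, so these numbers have no background beside them. The interaction of line and treatment passed for 19 members, 15 with a higher change in H146 and 4 with a lower one, where 46% and 13.3% of 24374 tested genes did so. Under the median of ratios 6 were higher and 14 lower (30.8% and 25.5% of all genes), and with quantile normalization 11 and 8 (25.7% and 25.2%). The 14 included MVD, FDPS, FDFT1, HSD17B7, DHCR7 and FADS1, whose difference was not past the threshold on TPM as deposited. With 1 library left out, the call of the difference was lost for ACSL3 in 10 of 13 fits, for IDI1 in 8, for ME1 in 7 and for ACLY in 1. The 10 members whose difference kept its sign and its call under both scalings were LSS, MSMO1, STARD4, ACACA, FASN and ELOVL6 above 0, and SREBF1, EBP, ACSS2 and ELOVL5 below 0. The share of all called differences that held in this way was not counted.

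**Figure D3:**
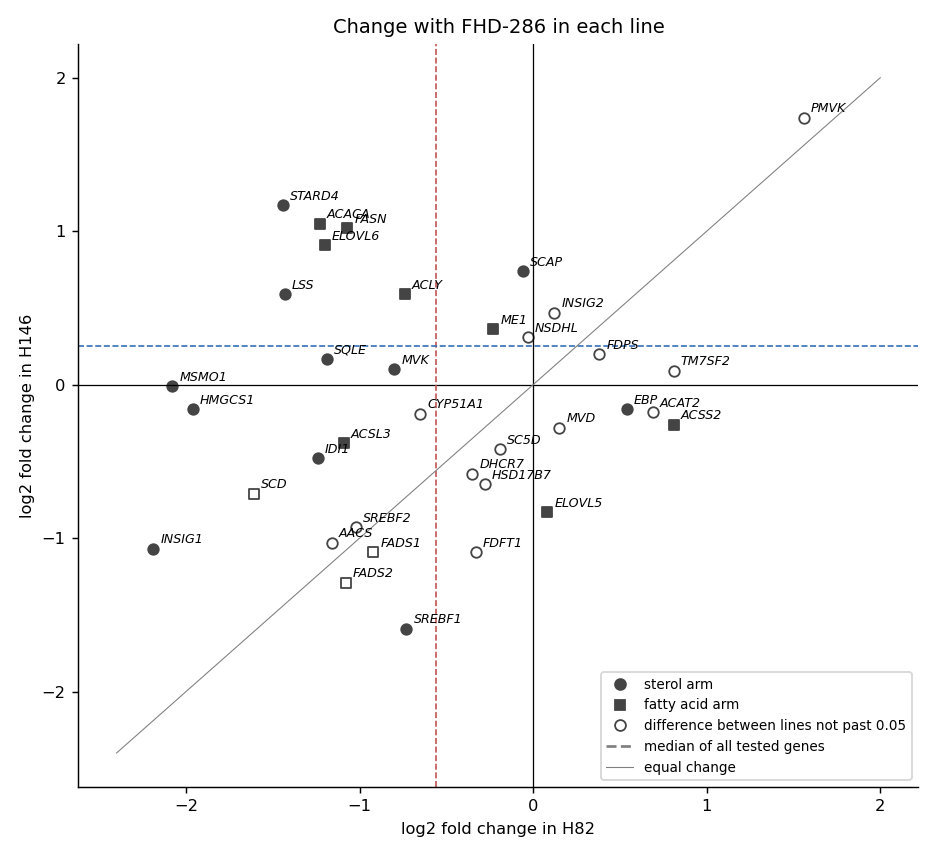
Log2 fold change of each member in H82 (x) against that in H146 (y), circles for the sterol arm and squares for the fatty acid arm, filled where the difference between the lines had an adjusted p under 0.05. STARD4, ACACA, FASN, ELOVL6 and LSS lie in the upper left, lower in H82 and higher in H146, and PMVK alone lies above 1 on both axes.

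**Figure D4:**
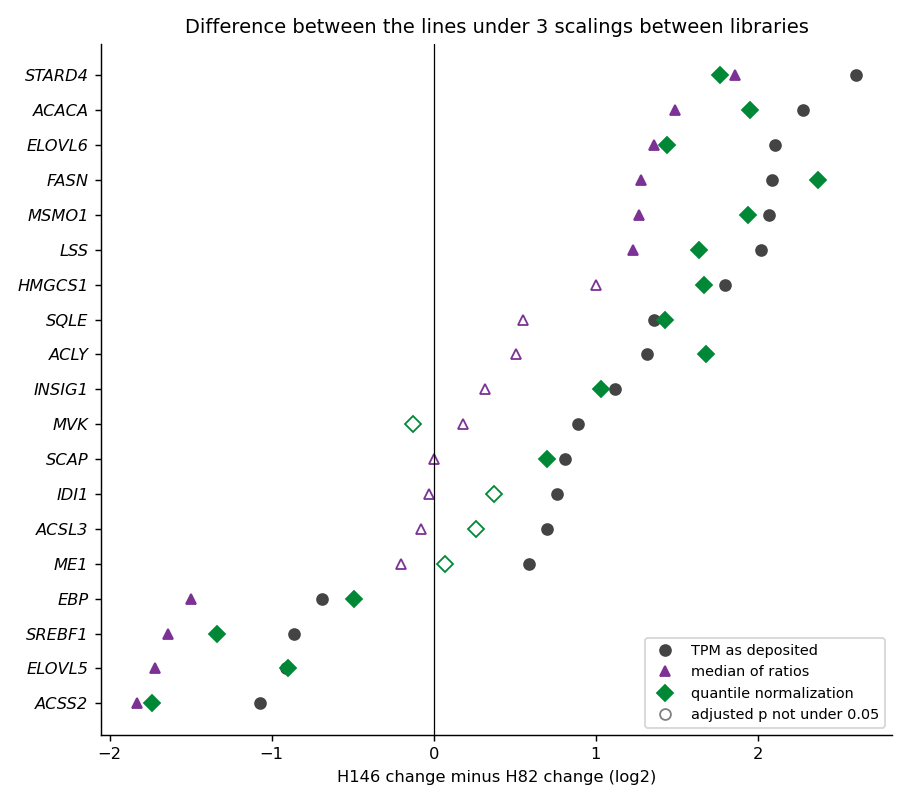
H146 change minus H82 change (log2) of the 19 members past the threshold, for TPM as deposited, after the median of ratios and after quantile normalization, open where the adjusted p was not under 0.05. The 6 upper and 4 lower members keep filled symbols under all 3, and SCAP, IDI1, ACSL3, MVK and ME1 reach 0 or cross it under a scaling.

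Levels of the lines were set side by side across the 2 tables, which are scaled only within each library, and without a test. The gap between H82 and H146 in mean log2(TPM + 1) was smaller with treatment for 24 of 36 members (66.7%) and for 60.1% of all tested genes. LSS went from a gap of 2.05 to 0.03, MSMO1 from 1.95 to -0.11, ACACA from 2.47 to 0.19, and ELOVL6 from 2.39 to 0.28 (H82 minus H146). STARD4 changed order, from 1.11 to -1.50. Other members changed order too, among them FASN (1.30 to -0.79), HMGCS1 (0.66 to -1.14), ACLY (0.95 to -0.37) and SREBF1 (-0.43 to 0.42). Members whose gap widened included ACSS2 (0.63 to 1.70), ACAT2 (0.18 to 1.05), EBP (0.42 to 1.11), ME1 (-1.07 to -1.66), ACSL3 (-0.25 to -0.96) and HSD17B7 (0.98 to 1.36).

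Summed over the arm, the sterol genes of H82 held 1809 ± 9.78 TPM without and 1351 ± 227 TPM with FHD-286 (SD, n = 3 each), and those of H146 1310 ± 81.8 TPM (n = 3) and 1245 ± 164 TPM (n = 4). The fatty acid genes held 1625 ± 5.15 TPM and 904 ± 394 TPM in H82, and 884 ± 122 TPM and 945 ± 68 TPM in H146. The sums of the H146 groups overlapped in both arms, and those of H82 did not.

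A library of each treated group departed from the rest of its group. Treated replicate 1 of H82 was the lowest of the 3 treated libraries for 27 of 36 members and for 10 of the 11 fatty acid genes, against 50.4% of all tested genes. The median of the fatty acid arm was -1.74 in that library and -0.57 and -0.55 in the other treated ones, where all genes were at -0.64, -0.56 and -0.50. Without it the arm's median was -0.53 (-0.56 over all genes), and 8 fatty acid genes were called lower (share of all genes not given). The same library had MKI67, a proliferation marker, at 9.11 TPM, where replicates 2 and 3 had 40.2 and 50.8 TPM and untreated H82 had 123 to 133 TPM, and the 8 proliferation genes summed to 1203 TPM there against 2310 and 2175 TPM. The part of this in the result was not tested.

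**Figure D5:**
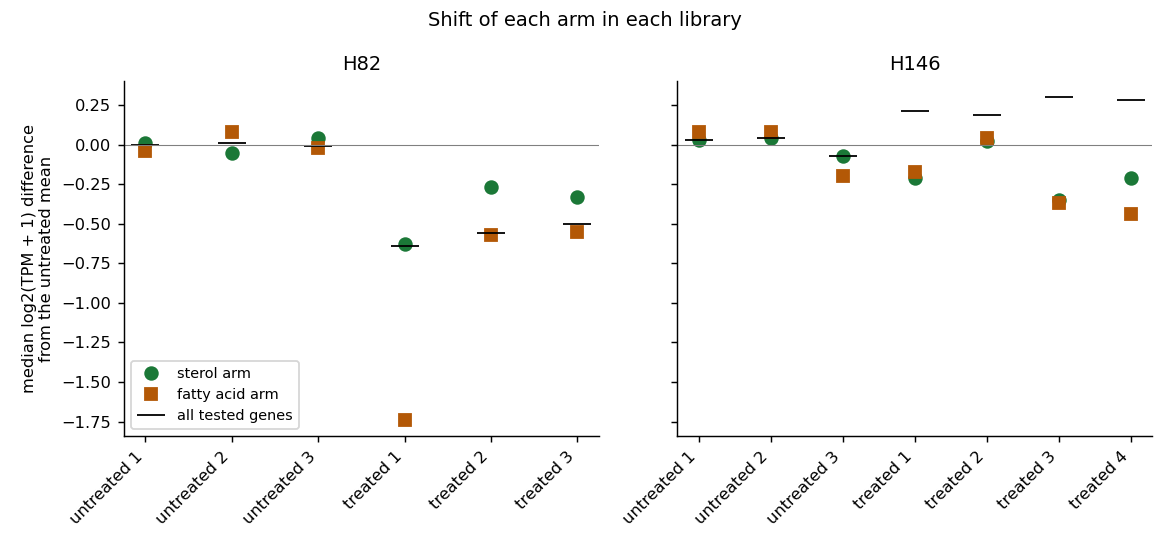
Median log2(TPM + 1) difference of each arm from its untreated mean in each library (circles sterol, squares fatty acid), with the same median over all tested genes as a black bar. The fatty acid arm lies at -1.74 in treated replicate 1 of H82, and both arms of treated replicate 2 of H146 lie at 0.02 and 0.04 while the other treated H146 libraries are at or below -0.17.

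Treated replicate 2 of H146 was the highest of 4 for 22 of 36 members, 17 of them among the 25 sterol genes, against 30.6% of all tested genes. It was the lowest of 4 for 7 members, against 40.2% of all tested genes. For MVD, IDI1, FDFT1, CYP51A1, HSD17B7, SC5D and DHCR7 it lay within or above the untreated range while the other 3 treated libraries lay below it. Without this library 11 sterol genes were called lower and 6 higher in H146 (share of all genes not given). The arm's median was then -0.25, and that of all genes 0.26. Treated replicate 2 of H82 carried RNA of genes that untreated H82 lacked and H146 expressed, with 52 of 123 such genes at 1 TPM or more against 16 and 10 in the other treated libraries. These stood at a median of 2.01% of their H146 level there, and at 0.485% and 0.177% in replicates 1 and 3. Without this library INSIG1, HMGCS1, MSMO1, LSS and STARD4 still fell in H82, with changes of -2.33, -2.11, -2.10, -1.49 and -1.37.

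Markers of the labelled cell type were checked. Of the 9 neuroendocrine markers, 8 or 9 had a mean of 1 TPM or more in every group. All 9 summed in H82 to between 982 and 1043 TPM without and between 297 and 903 TPM with the drug. In H146 the sums lay between 2741 and 3164 TPM and between 1603 and 2583 TPM. Not every marker fell with its sum. By group mean, INSM1, NCAM1, DLL3 and SCG2 were higher in treated H82, and the other markers lower. In H146 CHGB, NCAM1 and, only slightly, SCG3 were higher, and the others lower. CHGB rose there from 70.1, 84.2 and 71.9 TPM to 271, 284, 201 and 194 TPM. INSM1 fell from 1140, 1405 and 1144 TPM to 900, 1018, 758 and 804 TPM. SCG2 fell from 1246, 1253 and 1127 TPM to 733, 925, 302 and 309 TPM. The 5 epithelial markers (EPCAM, CDH1, KRT8, KRT18 and KRT19) summed to 1.57 to 3.61 TPM and 9.17 to 114 TPM in H82, and to 2234 to 2404 TPM and 575 to 647 TPM in H146. The highest treated H82 sums of both lists, 903 and 114 TPM, were those of replicate 2, which carried RNA of genes expressed in H146. It had INSM1 at 296 TPM, against 32.1 and 33.9 TPM in replicates 1 and 3. Markers of immune cells (5 genes) stayed at or under 20 TPM in sum in every group, and CD3E was listed at 0 throughout H82. The 6 fibroblast markers of H82 summed to between 1.7 and 2.5 TPM before and between 7.98 and 35.3 TPM after treatment, with COL3A1 listed at 0 without the drug, and to between 6.78 and 8.78 TPM and between 17.1 and 32.7 TPM in H146. Their part in the results was not tested. Mitochondrially encoded genes made up 22.1% to 24.1% of untreated and 12.3% to 14.9% of treated H82 RNA by TPM. Leaving them out gave 12 sterol and 6 fatty acid falls in H82 (share of all genes not given). The arm medians were then -0.50 and -1.23, and that of all genes -0.71.

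Neighbouring genes of the pathway were taken as lists. Their counts stand against the shares of all genes given above, in H82 45.5% lower and 13.1% higher (32.9% and 24.2% under the median of ratios), and in H146 15.5% lower and 32.5% higher (25.1% and 21.3%). Of 8 genes that carry, cut or degrade the SREBP machinery, 4 fell and 1 rose in H82, and 5 rose in H146, where limma called no fall and 2 were lower at an unadjusted p under 0.05. SEC24A, a coat protein of transport to the Golgi, fell in H82 from 29.6 ± 1.81 to 10.3 ± 1.67 TPM (log2 change -1.44, adjusted p = 0.000508), and AUP1, which helps to degrade membrane proteins, rose by 0.70 (adjusted p = 0.0104). SEC23A, a coat protein of the same vesicles, rose in H146 from 6.08 ± 1.28 to 16.7 ± 2.39 TPM (log2 change 1.33, adjusted p = 0.000666). The median change of this list was -0.47 in H82 and 0.75 in H146, and under the median of ratios 1 fell and 1 rose in H82, and 2 fell and 5 rose in H146.

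Of 11 genes of the isoprenoid and ubiquinone branch, 2 fell and 2 rose in H82, PGGT1B, a prenyltransferase subunit, falling most (-1.03, adjusted p = 0.00215) and COQ2, of ubiquinone synthesis, rising most (0.83, adjusted p = 0.0223). In H146 1 of them fell, GGPS1 (-1.06, adjusted p = 0.00102), which makes geranylgeranyl diphosphate, and 2 rose, led by the methyltransferase ICMT (1.36, adjusted p = 0.00391). Of 10 genes of sterol trafficking and esterification, 2 fell and 2 rose in H82, led by the endoplasmic reticulum protein TMEM97 (-0.78, adjusted p = 0.0488) and the lysosomal sterol carrier NPC2 (1.03, adjusted p = 0.00462), and 3 fell and 2 rose in H146. SOAT1, which esterifies cholesterol, rose there by 1.05 (adjusted p = 0.00708) and the sterol transfer protein GRAMD1A fell by 0.69 (adjusted p = 0.0124). Under the median of ratios 2 genes of the isoprenoid branch fell and 4 rose in H82, and 5 fell and 1 rose in H146, and of sterol trafficking 4 rose in H82 (no fall in limma, and 0 at an unadjusted p under 0.05), and 4 fell and 1 rose in H146.

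Targets of the sterol-activated receptor LXR were tested for 4 genes in H82 and 5 in H146. In H82 2 fell, the phospholipid acyltransferase LPCAT3 most (-0.74, adjusted p = 0.0336). In H146 2 fell and 1 rose, with the exporter ABCG1 going from 10.5 ± 0.627 to 1.95 ± 1.14 TPM (-2.04, adjusted p = 0.000721) and the phosphodiesterase SMPDL3A rising by 0.80 (adjusted p = 0.000503). Under the median of ratios limma called none of the LXR targets in H82, and 0 had an unadjusted p under 0.05 in either direction, while 3 fell and 1 rose in H146. The other genes of fatty acid synthesis and elongation gave 8 falls and 3 rises of 17 tested in H82, and 6 falls and 2 rises of 16 in H146. HACD1, a dehydratase of fatty acid elongation, rose in H146 from 0.665 ± 0.124 to 8.22 ± 0.612 TPM (2.47, adjusted p = 1.78e-05), and the desaturase FADS3 fell there by 1.79 (adjusted p = 0.000175). OLAH, a thioesterase that frees fatty acids from the synthase, fell in H82 from 7.68 ± 1.95 to 0.212 ± 0.137 TPM (-2.82, adjusted p = 0.000205), and TECR, an elongation reductase, rose by 0.87 (adjusted p = 0.00214). With the median of ratios this list had 4 falls and 6 rises in H82, and 9 falls and 1 rise in H146.

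Fatty acid oxidation was tested as 13 genes in H82, of which 5 rose and 1 fell (13.1% and 45.5% of all genes), and as 14 in H146, of which 2 rose and 2 fell (32.5% and 15.5%). CPT1A, the gate for fatty acids into mitochondria, rose in H82 from 4.75 ± 0.662 to 21.6 ± 5.98 TPM (1.95, adjusted p = 0.000646). In H146 the dehydrogenase ACADS fell most (-1.38, adjusted p = 0.000327) and CPT2, the partner of CPT1A, rose most (0.66, adjusted p = 0.0282). Under the median of ratios 9 of the list rose in H82 (no fall in limma, and 0 lower at an unadjusted p under 0.05), and 5 fell in H146 (no rise, and 1 higher at an unadjusted p under 0.05). Of the 8 proliferation genes, MKI67 fell in H82 (-2.23, adjusted p = 0.0131) and CDK1 in H146 (-0.57, adjusted p = 0.0041), and limma called no other (0 higher in H82 and 2 in H146 at an unadjusted p under 0.05), whereas under the median of ratios 1 fell and 3 rose in H82 and 4 fell in H146.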

How the data were processed

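RNA-seq of 13 libraries of H82 and H146 was analysed. Per the study's methods, STAR served the authors for mapping (hg38) and gene counting, and DESeq2 for comparisons. The submitters' processing notes also name Trim Galore 0.4.4. The deposited values are TPM, 1 table per line, and each column sums to 1000000, so that reads per library are unknown and no counting interval was drawn. How gene length was taken, and whether strand was used in counting, is not given in the sources used here.

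Each line was fitted with limma 3.58.1 in R 4.3.3 (lmFit, eBayes with trend) on log2(TPM + 1), keeping genes that reached 1 TPM in 3 or more of its libraries. The interaction of line and treatment was fitted over all 13 libraries. P-values are two-sided and were adjusted by Benjamini-Hochberg across every tested gene, and 0.05 was the threshold. A fold change on this scale understates the change of low genes. Alternatives were the median of ratios, quantile normalization, removal of the 37 mitochondrial genes, a pseudocount of 0.1, no filter, a mean TPM above 2, a replicate block, no trend, a threshold of 0.1 and each library left out.

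Values in every library are given for the 5 regulators, for members called with a log2 change of at least 1 in a line, and for members whose changes had opposite signs and a called difference. Of other lists, the largest called rise and fall in each line are given, except 1 that is not reported here. ACAT2, MVD, FDPS, CYP51A1, TM7SF2, NSDHL, HSD17B7, SC5D and DHCR7 fall outside the first rule. Members, lists and motifs were chosen with earlier results of these data known. On simulated data the H82 fit called 72.5% of genes changed by 2 on the log2 scale and 16.8% of those changed by 1, and the H146 fit 91.1% and 49.5%. The fit of the difference between the lines called 60.4% and 10.8%. Only 200 genes were changed in the simulation, far fewer than were called in the data, so these rates need not hold for the data. Coordinates came from GENCODE release 44 and promoters from RefSeq. Python 3.11.15 with numpy 2.4.6, pandas 2.3.3 and matplotlib 3.10.9 was used.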

Additional observations from a re-analysis of the deposited data

Results flagged for a closer look

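Within the 4 treated H146 libraries, 5 sterol genes had 1 library far from the other 3, and in each it was treated replicate 2. It was the highest for INSIG1 (58.1 TPM), IDI1 (38.9 TPM), FDFT1 (157 TPM) and HSD17B7 (19.8 TPM), and the lowest for TM7SF2 (13.9 TPM). The gap to the nearest library took 0.934, 0.83, 0.85, 0.906 and 0.857 of the range of the 4, above the critical value of Dixon's test at the 95% level. About 1 in 20 groups passes this limit by chance, and members measured in the same library are not independent of each other. TM7SF2 was thus apart in the opposite direction to the other 4 genes. All 36 members were searched, and the share of all tested genes past this limit was not counted. Over all tested genes, treated replicate 2 was the highest of the 4 for 30.6% and the lowest for 40.2%.

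The change with FHD-286 differed between the lines for 19 members by the interaction test of limma, given as the log2 change in H146 minus that in H82. It was above 0 for SCAP (0.81, adjusted p = 0.00474), INSIG1 (1.12, adjusted p = 0.0142), HMGCS1 (1.80, adjusted p = 0.00342), MVK (0.89, adjusted p = 0.00441), IDI1 (0.76, adjusted p = 0.0396), SQLE (1.36, adjusted p = 0.0024), LSS (2.02, adjusted p = 0.000142), MSMO1 (2.07, adjusted p = 0.00154), STARD4 (2.61, adjusted p = 1.57e-05), ACLY (1.32, adjusted p = 0.0209), ME1 (0.59, adjusted p = 0.0326), ACACA (2.28, adjusted p = 9.02e-05), FASN (2.09, adjusted p = 0.00245), ELOVL6 (2.11, adjusted p = 0.000181) and ACSL3 (0.70, adjusted p = 0.0446). It was below 0 for SREBF1 (-0.86, adjusted p = 0.00806), EBP (-0.69, adjusted p = 0.0189), ACSS2 (-1.07, adjusted p = 0.00113) and ELOVL5 (-0.91, adjusted p = 0.00591). Of all 24374 tested genes 46% were called above 0 and 13.3% below it, so the number of members was near the background. With 1 library left out, the ACSL3 difference was not past the threshold in 10 of 13 fits (adjusted p up to 0.107), IDI1 in 8 (up to 0.103), ME1 in 7 (up to 0.0928) and ACLY in 1 (0.0582). For LSS, STARD4, ACACA and ELOVL6 both single changes passed the test, in opposite directions.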

How the results depend on the processing

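Under the median of ratios the H82 counts were 9 sterol falls, 6 sterol rises (main value 1), 2 fatty acid falls (5) and 2 rises (1), with arm medians of 0.13 in place of -0.35 and -0.58 in place of -1.07. In H146 the same scaling gave 12 sterol falls (6), 3 rises (5), and medians of -0.47 (-0.16) and -0.55 (-0.26). Differences between the lines were then below 0 for 14 members (4) and above 0 for 6 (15). Quantile normalization gave 4 sterol rises and a sterol median of -0.10 in H82, a fatty acid median of -0.52 in H146 and 8 differences below 0. Leaving out treated replicate 2 of H82 together with the median of ratios gave 6 sterol falls and 3 rises, no fatty acid fall by limma (3 were lower at an unadjusted p under 0.05) and 2 rises, a sterol median of 0.11, and differences below 0 for 14 and above 0 for 5 members. Without the mitochondrial genes the sterol median of H82 was -0.50, with an adjusted threshold of 0.1 2 sterol genes rose there, and without a filter on low values 3 sterol genes fell in H146. The cause of these moves was not tested. Without the filter, which changes the set of tested genes, the median of all genes in H146 was 0.08. Shares of all genes called are given above for the 2 scalings on all libraries, and not for the other settings.

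With each library left out in turn, H82 had 9 to 12 sterol falls, 1 to 4 rises and a median of -0.46 to -0.33, and 2 to 8 fatty acid falls with a median of -1.24 to -0.53. The 8 falls came without treated replicate 1, and 2 or 3 without any 1 of the untreated libraries. H146 had 3 to 11 sterol falls, 11 of them without treated replicate 2 and 3 without any 1 of the untreated libraries or treated replicate 3. Called differences between the lines were below 0 for 4 to 8 members and above 0 for 11 to 14. Where this left 2 libraries in a group, limma pooled the spread over both groups. The median of all genes ran from -0.62 to -0.33 in these fits of H82 and from 0.21 to 0.29 in those of H146. Shares of all genes called are not given for fits with a library left out.

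Single members changed sign only in a line where they had not passed the test, and 5 called differences between the lines changed sign as well. In H82 the median of ratios turned SCAP (0.42), FDFT1 (0.15), NSDHL (0.46), HSD17B7 (0.20), SC5D (0.28), DHCR7 (0.13) and ME1 (0.24), and together with leaving out treated replicate 2 it gave 0.50, 0.12, 0.43, 0.45, 0.25, 0.11 and 0.35. Quantile normalization turned CYP51A1 (0.06), HSD17B7 (0.05), SC5D (0.17) and ME1 (0.16), and removal of the mitochondrial genes INSIG2 (-0.02) and ELOVL5 (-0.07). With a library left out, signs turned for SCAP (-0.23 to 0.11), NSDHL (-0.14 to 0.18), INSIG2 (-0.04 to 0.21), ELOVL5 (-0.00 to 0.22) and MVD (-0.05 to 0.28). In H146 the median of ratios turned MVK (-0.19), FDPS (-0.11), SQLE (-0.14), TM7SF2 (-0.22) and NSDHL (-0.00), quantile normalization MVK (-0.17) and TM7SF2 (-0.13), and a library left out HMGCS1 (-0.44 to 0.01) and MSMO1 (-0.35 to 0.19). Between the lines, the difference turned for IDI1 (-0.03), ME1 (-0.20) and ACSL3 (-0.08) under the median of ratios, for MVK (-0.13) under quantile normalization, and for SCAP (-0.05), IDI1 (-0.09) and ME1 (-0.29) under the median of ratios without treated replicate 2 of H82.

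Replicate numbers are shared by the groups, but same-numbered libraries did not deviate together (correlations across genes of 0.027, 0.00753 and -0.0378 in H82, and -0.111, -0.0647 and 0.0108 in H146). The main fit used no pairing. With so few libraries, these correlations cannot tell whether same-numbered libraries were grown or prepared together. Under the replicate block 3 sterol genes rose in H146 (share of all genes not given) and MSMO1 was at 0.19, and the calls of INSIG2, LSS, DHCR7, ACLY and ACSL3 in H146 and of IDI1 and ME1 between the lines were lost. Depth per library is unknown.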
